A study of Mus musculus with 30 samples.

Results

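The genes described here are 10 growth factor genes, namely the EGF family ligands Hbegf, Areg, Ereg, Tgfa, Btc and Nrg1, together with Hgf, Fgf1, Fgf2 and Pdgfa. They were found by symbol in the probe-to-gene table of the array. Only probe sets that name a single gene were used, and for each gene the probe set with the highest mean over the 30 arrays was kept. Of the 10 genes, 9 were measured, each by 1 probe set, among 19936 genes in all. Areg had no probe set with its symbol in that table and was not analysed here.

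Growth factors of these families are secreted or membrane-bound proteins that bind receptor tyrosine kinases on the same or neighbouring cells. The EGF family ligands are made as membrane-anchored precursors that surface proteases cut free. Hbegf, Ereg, Btc, Tgfa and Areg bind EGFR, Hbegf, Ereg and Btc also bind ERBB4, and Nrg1 binds ERBB3 and ERBB4. Hgf is the ligand of MET, Fgf1 and Fgf2 bind FGF receptors together with heparan sulfate, and Pdgfa binds PDGFRA. EGFR, MET and PDGFRA signalling are known drivers of human glioblastoma, and in normal brain Fgf1 is known as a neuronal FGF and Fgf2 as an astrocytic one.

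Total RNA from dissected mouse brain tumors and from normal brain was hybridised to Affymetrix Mouse Gene 1.0 ST arrays and summarised by the authors as a log2 signal for each probe set. The tumors arose after injection of a construct in which the GFAP, SYN1 or NES promoter drives Cre recombinase, the enzyme that recombines loxP sites. GFAP is active in astrocytes and neural stem cells, SYN1 in neurons and NES in neural progenitors. The 30 arrays comprised 4 GFAP-CRE cortex tumors, 4 SYN1-CRE cortex tumors, 7 GFAP-CRE hippocampus tumors, 4 NES-CRE hippocampus tumors, 3 GFAP-CRE tumors of the subventricular zone (SVZ), 4 normal cortex samples and 4 normal hippocampus samples. The injected cassettes, the strain, the age and the number of animals are not given in the sources used here, and no normal SVZ sample was analysed. Nothing in the labels says that arrays of a group were taken from different mice, and the p-values speak only for the spread among these arrays, part of which may be technical. In bulk tissue, fewer cells of a type and less RNA per cell cannot be told apart.

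The array medians over all probe sets lay between 7.03 and 7.30, and the number of arrays limits the precision. GFAP cortex tumor 1 and GFAP hippocampus tumors 5, 6 and 7 stood apart from the rest on the second principal component, which held 14.2% of the variance. These arrays also had the lowest medians over the genes used, at 7.42, 7.46, 7.52 and 7.43, against 7.57 to 7.99 in the others. Their signals were the most narrowly spread as well. The interquartile range was 1.88, 2.18, 2.40 and 2.28 in them, against 2.45 to 3.03 in the others. All 5 measured proliferating cell markers were called higher in each of the 5 tumor groups against normal brain. Of 10 neuron markers, 6 were called lower in GFAP cortex tumors, 6 in GFAP hippocampus tumors, 9 in SYN1 cortex tumors and 8 in GFAP SVZ tumors, and 0 in NES hippocampus tumors, where 18.8%, 25.2%, 20.5%, 21.4% and 2.86% of all genes were called lower. Of 10 microglia and macrophage markers, 6 or 7 were called higher in each tumor group, where 5.69% to 18.2% of all genes were called higher.

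Most of the genes were placed by symbol in RefSeq GRCm38.p6 (the build behind the array's own design is not given in the sources used here). Ereg (chr5:91074617-91093649), Areg (chr5:91139599-91148432) and Btc (chr5:91357261-91402994) are neighbours: with Epgn, another EGF family ligand at chr5:91027517-91035212, they are the 4 protein-coding genes among the 7 annotated genes of a 375.5 kb stretch. Hgf (chr5:16553495-16619439) and Pdgfa (chr5:138976014-139000792) lie elsewhere on the same chromosome. Tgfa lies at chr6:86195038-86275744, Nrg1 at chr8:31807452-32891609 and Fgf2 at chr3:37348477-37410106.

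RefSeq promoter windows of 250 bases upstream of the start were read for Btc, which was called higher in 4 of the 5 tumor groups, and for Hgf, which differed between the normal regions. Both are printed 5′ to 3′ on the strand of the gene, and capitals mark E-box matches. Btc is on the minus strand, with its window at chr5:91402995-91403244, and Hgf on the plus strand, with its window at chr5:16553245-16553494.
Btc: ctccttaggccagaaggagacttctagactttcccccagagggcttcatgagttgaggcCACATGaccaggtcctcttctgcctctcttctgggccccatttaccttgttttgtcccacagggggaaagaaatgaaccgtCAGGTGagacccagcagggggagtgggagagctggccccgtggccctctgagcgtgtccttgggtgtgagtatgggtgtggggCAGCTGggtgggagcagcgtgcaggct
Hgf: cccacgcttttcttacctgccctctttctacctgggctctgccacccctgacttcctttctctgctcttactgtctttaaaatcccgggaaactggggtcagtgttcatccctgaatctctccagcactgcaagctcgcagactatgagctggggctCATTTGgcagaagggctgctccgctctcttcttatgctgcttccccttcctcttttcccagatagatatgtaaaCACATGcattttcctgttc
The windows were searched on both strands for AP-1 (TGANTCA), CRE (TGACGTCA), the GC box (GGGCGG), the TATA box (TATAAA), ETS (CCGGAAGT), STAT (TTCNNNGAA) and the E-box (CANNTG). The Btc window held 3 E-box matches and the Hgf window 2, and 66.2% of 32851 promoter windows of the same length held at least 1. Neither window held these letters for the other motifs, which occurred in 6.75% (AP-1), 1.55% (CRE), 32.7% (GC box), 12.4% (TATA box), 2.88% (ETS) and 7.02% (STAT) of windows. The GC content was 59.6% for Btc and 50.8% for Hgf, with a median of 52.4% over all windows. Hgf has another annotated window, at chr5:16553651-16553900 inside the gene, which is not printed. It held no match to any of these motifs and had a GC content of 51.2%.

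**Figure D1:**
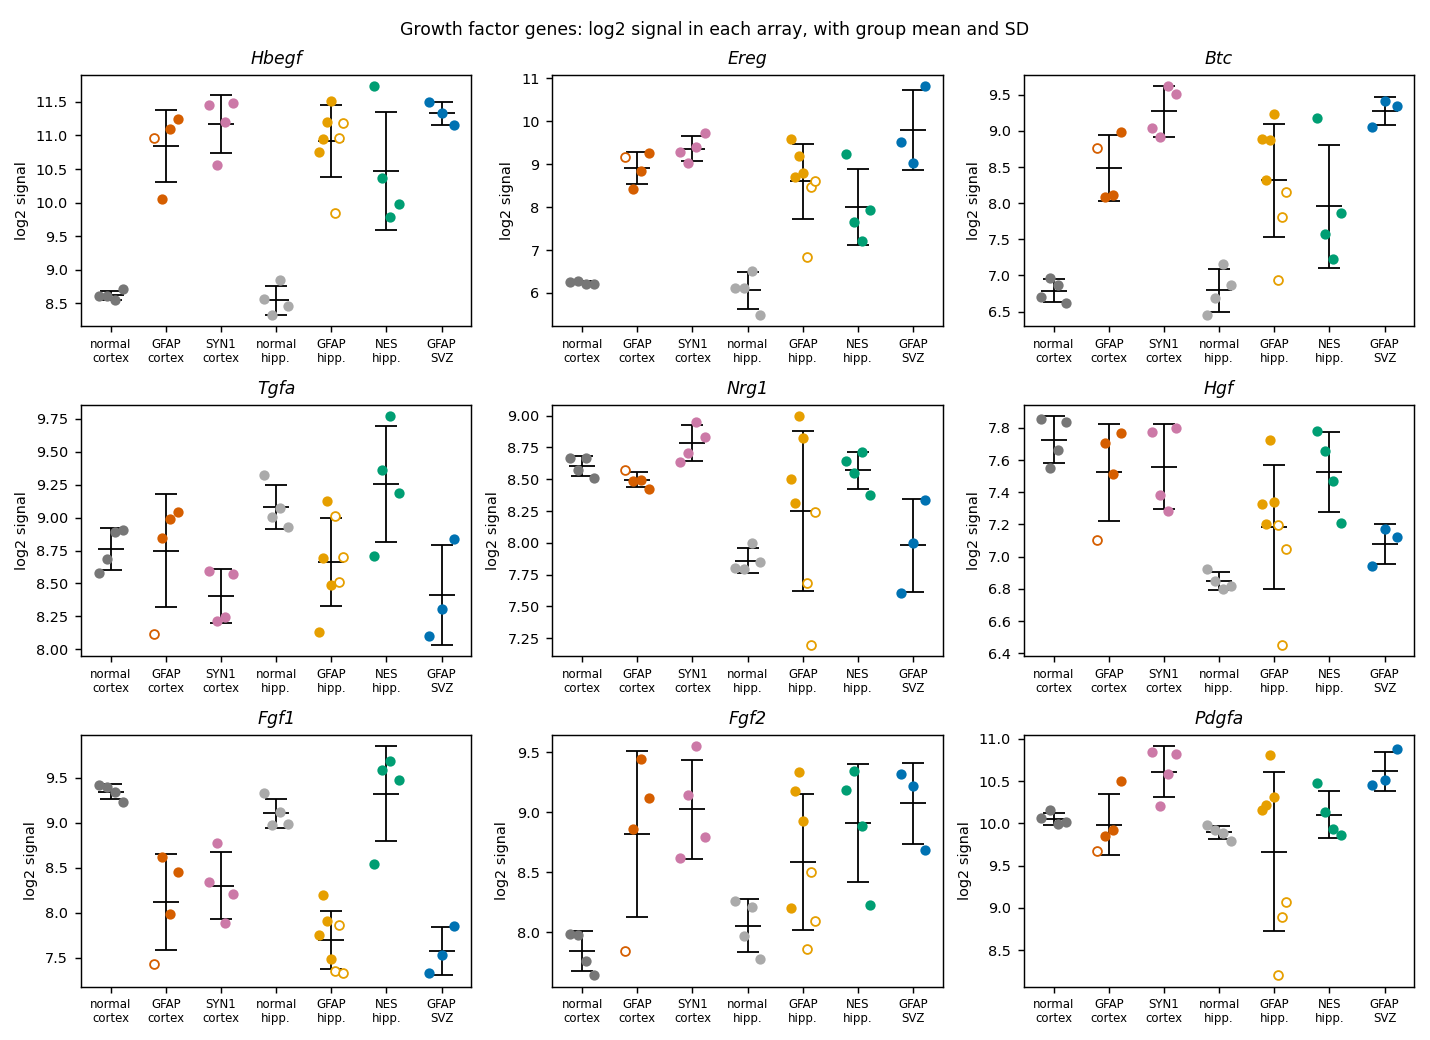
Each panel shows the log2 signal (vertical axis) of a growth factor gene in every array, by group (horizontal axis), with lines at the group mean and bars for 1 SD; open circles are GFAP cortex tumor 1 and GFAP hippocampus tumors 5 to 7. For Hbegf and Ereg every tumor array lies above every normal array, for Fgf1 the tumor arrays lie below them except NES hippocampus tumors 2 to 4, and for Pdgfa the 3 open circles of the GFAP hippocampus group lie lowest.

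Tumor groups were compared with the normal tissue of their region by limma, fitted to all genes and 7 groups at once, and a gene was called at a Benjamini-Hochberg adjusted p under 0.05 over 19936 genes. SVZ tumors were compared with the mean of both normal tissues, so that region and tumor cannot be told apart there. Hbegf and Ereg were called higher in all 5 tumor groups, Btc in 4 and Fgf2 in 3, and Fgf1 was called lower in 4, all but the NES hippocampus tumors. Hgf was called higher in NES hippocampus tumors only, which does not show that it differed from the other groups. Tgfa, Nrg1 and Pdgfa were called in none of these 5 comparisons. GFAP and SYN1 cortex tumors share the normal cortex arrays, GFAP and NES hippocampus tumors share the normal hippocampus arrays, and the SVZ comparison uses both.

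In GFAP cortex tumors 5 of the 9 genes were called, 4 higher and 1 lower, while 27.8% of all genes were called, 9% higher and 18.8% lower. In GFAP hippocampus tumors 3 were called higher and 1 lower, against 16.1% and 25.2% of all genes (41.4% in either direction). In SYN1 cortex tumors 4 were called higher and 1 lower, against 18.2% and 20.5% (38.7%). In NES hippocampus tumors 3 were called higher and 0 lower, against 5.69% and 2.86% (8.56%), and 6 of the 9 had an unadjusted p under 0.05. In GFAP SVZ tumors 4 were called higher and 1 lower, against 16.2% and 21.4% (37.6%). The tumor arrays and their normal arrays did not overlap for 4, 3, 6, 5 and 6 of the 9 genes in these groups, in the order just given, against 37.1%, 26.2%, 49%, 24.6% and 42.3% of all genes. The median log2 difference of the 9 genes was -0.02, 0.39, 0.56, 0.71 and 0.64, and that of all genes -0.10, -0.08, -0.04, -0.04 and 0.00. Without GFAP hippocampus tumors 5 to 7, 8 of the 9 genes were called in the GFAP hippocampus comparison in place of 4. Leaving GFAP cortex tumor 1 out as well, the NES hippocampus comparison called 6 genes in place of 3. The shares of all genes called under these settings are not given here, so whether the rise is particular to the growth factors cannot be said.

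**Figure D2:**
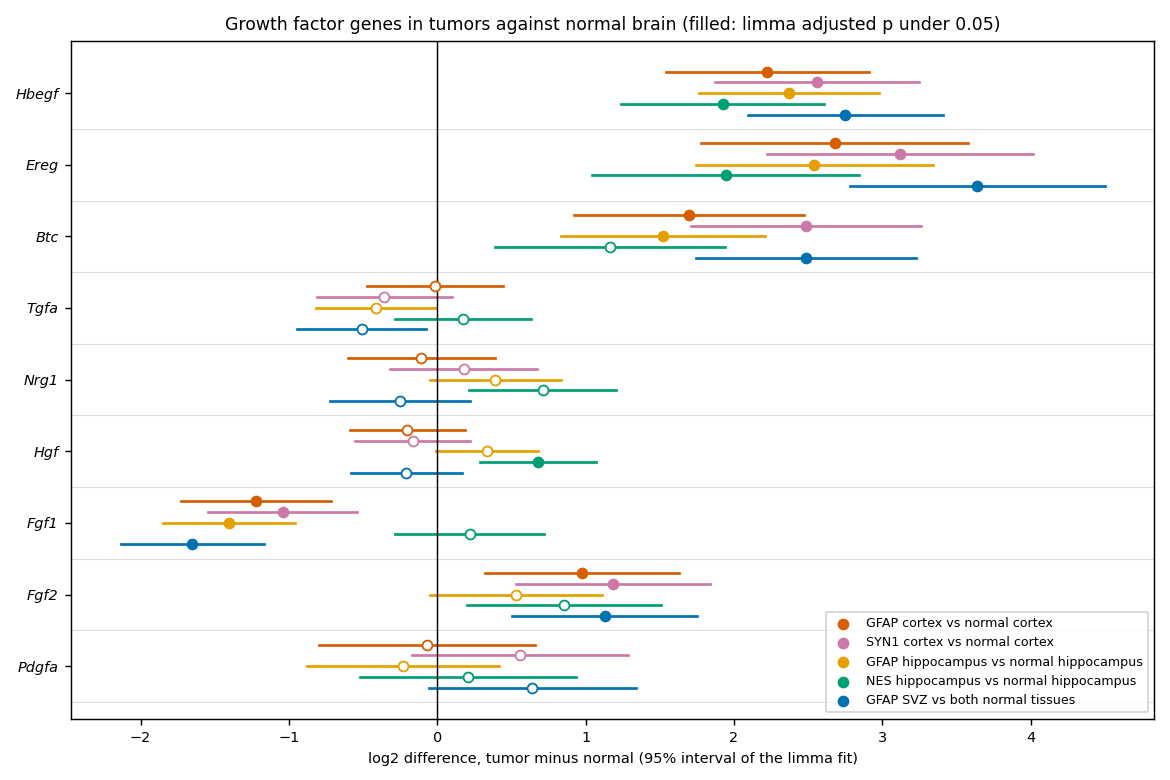
The log2 difference (horizontal axis, tumor minus normal) of each growth factor gene in 5 tumor groups, with the 95% interval of the limma fit; filled points have an adjusted p under 0.05. Hbegf, Ereg and Btc lie between 1.17 and 3.64 to the right of 0, Fgf1 lies to the left except in NES hippocampus tumors, and Tgfa, Nrg1, Hgf and Pdgfa lie within 0.71 of 0.

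Hbegf encodes heparin-binding EGF-like growth factor, a ligand of EGFR and ERBB4, and lies at chr18:36504927-36515805 in the same RefSeq build. Its log2 signal was 8.61, 8.61, 8.54 and 8.71 in normal cortex and 8.56, 8.33, 8.84 and 8.45 in normal hippocampus. In cortex tumors it was 10.97, 10.06, 11.09 and 11.25 with GFAP-CRE and 11.45, 10.56, 11.20 and 11.49 with SYN1-CRE. All 22 tumor arrays lay above all 8 normal arrays, so none of the groups overlapped with normal brain. The GFAP hippocampus tumors ranged from 9.85 through a median of 10.97 to 11.51, the NES hippocampus tumors had 11.74, 10.37, 9.78 and 9.98, and the SVZ tumors 11.50, 11.33 and 11.16. The lowest tumor arrays were NES hippocampus tumor 3 and GFAP hippocampus tumor 5, and the highest was NES hippocampus tumor 1.

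The log2 difference in Hbegf from normal tissue was 2.22 ± 0.33 in GFAP cortex tumors (standard error of the limma fit, here and below; adjusted p = 5.78e-05), a 4.67-fold higher signal. It was 2.37 ± 0.30 in GFAP hippocampus tumors (limma adjusted p = 1.24e-06), 2.56 ± 0.33 in SYN1 cortex tumors (2.13e-06), 1.92 ± 0.33 in NES hippocampus tumors (0.000514) and 2.75 ± 0.32 in SVZ tumors (8.87e-07). Each of these differences exceeded the SD between arrays of its groups. The largest SD was 0.88, in NES hippocampus tumors, whose arrays ran from 9.78 to 11.74. GFAP hippocampus tumors 5 to 7 taken alone differed from normal hippocampus by 2.12 (limma adjusted p = 8.34e-05) and tumors 1 to 4 by 2.56 (8.03e-07).

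Ereg encodes epiregulin, which also binds EGFR and ERBB4, and it had the largest differences of the 9 genes. Its log2 signal was 6.26, 6.29, 6.21 and 6.21 in normal cortex and 6.11, 6.12, 6.51 and 5.49 in normal hippocampus. The cortex tumors had 9.16, 8.42, 8.84 and 9.26 (GFAP) and 9.29, 9.03, 9.40 and 9.73 (SYN1). Every tumor array again lay above every normal array. The GFAP hippocampus tumors ranged from 6.83 through a median of 8.69 to 9.60, the NES hippocampus tumors had 9.24, 7.64, 7.20 and 7.93, and the SVZ tumors 9.53, 9.02 and 10.82. GFAP hippocampus tumor 5 lay nearest to normal brain and SVZ tumor 3 highest.

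The log2 difference in Ereg was 3.64 ± 0.42 in SVZ tumors (limma adjusted p = 7.94e-07), a 12.5-fold higher signal. In SYN1 cortex tumors it was 3.12 ± 0.44 (4.55e-06), in GFAP cortex tumors 2.68 ± 0.44 (0.000123), in GFAP hippocampus tumors 2.54 ± 0.39 (1.43e-05) and in NES hippocampus tumors 1.94 ± 0.44 (0.00537). Within the GFAP hippocampus group, tumors 1 to 4 had 8.69 to 9.60 and tumors 5 to 7 had 6.83 to 8.61, without overlap. The mean of Ereg in normal cortex was 6.24, and 20% of all genes had a mean over the 30 arrays at or below 6.24.

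Btc encodes betacellulin, a further ligand of EGFR and ERBB4. Normal cortex had 6.70, 6.97, 6.86 and 6.61 and normal hippocampus 6.46, 6.68, 7.17 and 6.87. The signal was 8.76, 8.08, 8.11 and 8.98 in GFAP cortex tumors, 9.04, 8.91, 9.62 and 9.51 in SYN1 cortex tumors and 9.05, 9.42 and 9.35 in SVZ tumors. These 3 groups lay wholly above normal brain. The GFAP hippocampus tumors ranged from 6.93 through a median of 8.32 to 9.24, and NES hippocampus tumors had 9.17, 7.57, 7.23 and 7.86. GFAP hippocampus tumor 5, at 6.93, was the only tumor array of 22 that did not lie above all 8 normal arrays.

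The log2 difference in Btc was 2.49 ± 0.38 in SYN1 cortex tumors (limma adjusted p = 1.13e-05) and 2.49 ± 0.36 in SVZ tumors (8.81e-06). It was 1.70 ± 0.38 in GFAP cortex tumors (0.00172) and 1.52 ± 0.33 in GFAP hippocampus tumors (0.000749). With GFAP hippocampus tumors 5 to 7 alone the value was 0.84 and no longer called (adjusted p = 0.0532). In NES hippocampus tumors Btc was 1.17 ± 0.38 above normal, which missed the threshold (adjusted p = 0.0536) although the arrays did not overlap. That comparison was called without NES hippocampus tumor 3 (1.41, adjusted p = 0.0238), and also when GFAP cortex tumor 1 (0.049), GFAP hippocampus tumor 4 (0.041) or GFAP hippocampus tumor 5 (0.0178), none of which belongs to it, was left out of the pooled spread.

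Tgfa encodes transforming growth factor alpha, an EGFR ligand known in glioma, and it was not called in any tumor group. The normal arrays had 8.58, 8.68, 8.89 and 8.90 in cortex and 9.32, 9.0, 9.07 and 8.93 in hippocampus. Over the 22 tumor arrays it ran from 8.10 to 9.77, with 2 above all normal arrays and 9 below them. The 2 high arrays were NES hippocampus tumors 2 and 3 (9.36 and 9.77). The difference from normal was -0.02 in GFAP cortex, -0.42 in GFAP hippocampus, -0.36 in SYN1 cortex, 0.17 in NES hippocampus and -0.51 in SVZ tumors, with limma adjusted p from 0.0608 to 0.971. The 95% intervals ran from -0.47 to 0.44 in GFAP cortex and from -0.95 to -0.07 in SVZ tumors.

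The calls on Tgfa depended on single arrays and on how the spread was estimated. Without GFAP hippocampus tumor 3 the GFAP hippocampus difference was -0.49 (limma adjusted p = 0.047). The SVZ difference was -0.72 without SVZ tumor 3 (adjusted p = 0.0203), and it was called with its value kept at -0.51 when GFAP cortex tumor 1 (0.0354), GFAP hippocampus tumor 1 (0.0484), NES hippocampus tumor 1 (0.0451) or NES hippocampus tumor 3 (0.0479) was left out of the pooled spread. With only the groups compared in the fit, Tgfa was called lower in SYN1 cortex (-0.36, adjusted p = 0.0389) and SVZ tumors (-0.51, 0.00982). Array weights gave calls in GFAP hippocampus (-0.41, 0.0268), SYN1 cortex (-0.39, 0.0305) and SVZ tumors (-0.62, 0.00016). The SVZ difference was also called with dim genes left out (0.0494), with the replicate block (-0.50, 0.0397) and without the 4 arrays that stood apart (0.0326).

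Over the 30 arrays Tgfa went with the neuron marker score (r = 0.73, and 0.76 within groups), the astrocyte score (0.77 and 0.74), the oligodendrocyte precursor score (0.78 and 0.66) and the oligodendrocyte score (0.72 and 0.65). Here a score is the mean log2 difference of a list of markers from the 8 normal arrays, and the points share arrays and scaling. The part of these cell types in the Tgfa values was not tested.

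Nrg1 encodes neuregulin 1, which binds ERBB3 and ERBB4 and is known for its roles in glia and synapses. Normal cortex had 8.66, 8.57, 8.67 and 8.51 and normal hippocampus 7.80, 7.79, 8.0 and 7.85. These did not overlap, with a difference of -0.74 ± 0.24 for hippocampus minus cortex that was not called (limma adjusted p = 0.207), and was called without GFAP hippocampus tumor 6 in the pooled spread (0.0397). In cortex the GFAP tumors had 8.57, 8.49, 8.49 and 8.43 and the SYN1 tumors 8.63, 8.70, 8.95 and 8.84, close to normal cortex. The NES hippocampus tumors had 8.64, 8.55, 8.71 and 8.38, all above normal hippocampus, and the GFAP hippocampus tumors ranged from 7.20 through a median of 8.32 to 9.0. The 3 SVZ tumors had 7.60, 7.99 and 8.34.

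No tumor group was called for Nrg1. The difference was 0.71 ± 0.24 in NES hippocampus tumors (limma adjusted p = 0.066), 0.39 ± 0.21 in GFAP hippocampus tumors (0.147), 0.18 in SYN1 cortex, -0.11 in GFAP cortex and -0.25 in SVZ tumors. GFAP hippocampus tumors 1 to 4 had 8.32 to 9.0 and tumors 5 to 7 had 7.20 to 8.24. With tumors 1 to 4 only, the GFAP hippocampus difference was 0.80 and called (adjusted p = 6.87e-05), and with tumors 5 to 7 only it was -0.15. Without GFAP hippocampus tumor 6 it was 0.57 (adjusted p = 0.00994). The NES hippocampus call was gained when GFAP hippocampus tumor 3 (0.0398), 5 (0.0448) or 6 (0.016) was left out of the pooled spread, and also with array weights (0.67, 3.57e-05), the replicate block (0.71, 0.000499) and only the groups compared (0.71, 0.00296). Array weights also gave calls in GFAP hippocampus (0.61, 0.000709) and SVZ tumors (-0.31, 0.03).

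Hgf encodes hepatocyte growth factor, the ligand of MET. Normal cortex had 7.86, 7.55, 7.66 and 7.84, all above the 6.92, 6.85, 6.80 and 6.82 of normal hippocampus. The regional difference, hippocampus minus cortex, was -0.88 ± 0.19 (limma adjusted p = 0.0108), a 1.84-fold lower signal. In the fit of all 30 arrays Hgf was the only one of the 9 genes called between the normal tissues, where 1.29% of all genes were called. Of the 9 genes 4 did not overlap, against 18.3% of all genes. Without normal cortex sample 1 the Hgf difference was -0.83 (adjusted p = 0.0507).

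Among tumors, Hgf was 7.10, 7.71, 7.51 and 7.77 with GFAP-CRE in cortex, 7.77, 7.38, 7.28 and 7.80 with SYN1-CRE in cortex and 6.94, 7.17 and 7.12 in the SVZ. The NES hippocampus tumors had 7.78, 7.65, 7.47 and 7.21, all above normal hippocampus, and the GFAP hippocampus tumors ranged from 6.45 through a median of 7.20 to 7.72. Hgf was 0.68 ± 0.19 above normal in NES hippocampus tumors (limma adjusted p = 0.0231), a 1.60-fold higher signal. The call was lost without NES hippocampus tumor 1 (0.60, adjusted p = 0.118), NES hippocampus tumor 2 (0.64, 0.0701), or normal hippocampus sample 2 (0.68, 0.0523), 3 (0.66, 0.0593) or 4 (0.67, 0.0591). In GFAP hippocampus tumors the difference was 0.34 ± 0.17 (adjusted p = 0.111), and it was called without tumor 6 (0.46, 0.0132), with tumors 1 to 4 only (0.55, 0.00511), and with each array centred on its median (0.40, 0.022) or quantile normalization (0.42, 0.018). In GFAP cortex, SYN1 cortex and SVZ tumors it was -0.20, -0.17 and -0.21, with adjusted p of 0.484, 0.553 and 0.422.

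Fgf1 encodes acidic FGF, which binds all FGF receptors, and lies at chr18:38838672-38929470. The normal arrays had 9.42, 9.40, 9.34 and 9.23 in cortex and 9.33, 8.97, 9.12 and 8.99 in hippocampus. The cortex tumors had 7.43, 8.62, 7.99 and 8.45 with GFAP-CRE and 8.35, 8.78, 7.88 and 8.21 with SYN1-CRE. All 8 lay below every normal array. The GFAP hippocampus tumors ranged from 7.34 through a median of 7.75 to 8.20, the SVZ tumors had 7.33, 7.53 and 7.86, and the NES hippocampus tumors 8.54, 9.58, 9.69 and 9.47. Thus 19 of 22 tumor arrays lay below all normal arrays and the other 3, NES hippocampus tumors 2 to 4, lay above all of them.

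The log2 difference in Fgf1 was -1.65 ± 0.24 in SVZ tumors (limma adjusted p = 7e-06), a 3.14-fold lower signal. It was -1.40 ± 0.22 in GFAP hippocampus tumors (1.74e-05), -1.22 ± 0.25 in GFAP cortex tumors (0.00078) and -1.04 ± 0.25 in SYN1 cortex tumors (0.00121). In NES hippocampus tumors it was 0.22 ± 0.25 (adjusted p = 0.654), with a 95% interval from -0.29 to 0.72, and with array weights it was 0.41 and called (0.0179). Compared directly, Fgf1 was 1.62 ± 0.22 higher in NES than in GFAP hippocampus tumors (limma adjusted p = 0.00127), without overlap. That call was lost, at the same value, when the spread was taken from these 2 groups alone (adjusted p = 0.148), and it was kept with GFAP hippocampus tumors 1 to 4 only (1.48, 0.00559) and 5 to 7 only (1.80, 2.69e-05).

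Neuron markers moved with Fgf1. The neuron marker score lay between -3.64 and -0.50 in GFAP cortex tumors, -2.49 and -0.84 in GFAP hippocampus tumors, -3.11 and -2.11 in SYN1 cortex tumors and -2.61 and -1.55 in SVZ tumors. In NES hippocampus tumors it lay between -1.42 and -0.16. Over the 30 arrays Fgf1 and the neuron score had r = 0.81, and 0.69 for deviations from the group means, and for the oligodendrocyte score r was 0.76 and 0.70. NES hippocampus tumor 1, the array of that group with the lowest Fgf1 (8.54), also had its lowest neuron score (-1.42). The part of the neuron content in the Fgf1 values was not tested.

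**Figure D3:**
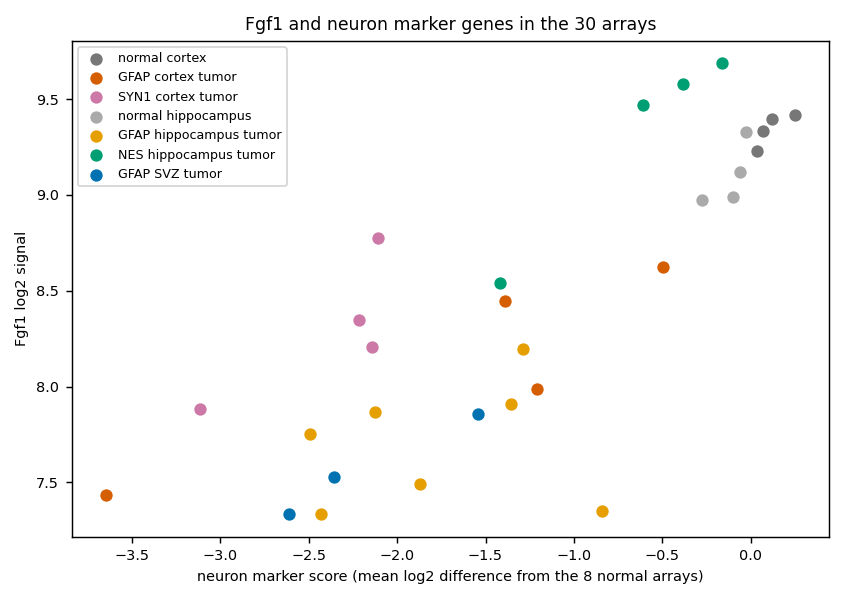
Fgf1 log2 signal (vertical axis) against the neuron marker score (horizontal axis, mean log2 difference of 10 markers from the 8 normal arrays) in the 30 arrays, coloured by group. NES hippocampus tumors 2 to 4 lie near the normal arrays at the upper right, and the other tumor arrays lie below 8.8 in Fgf1.

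Fgf2 encodes basic FGF. Normal cortex had 7.98, 7.97, 7.76 and 7.64 and normal hippocampus 8.26, 7.97, 8.21 and 7.78. The signal was 7.84, 8.86, 9.44 and 9.12 in GFAP cortex tumors, 8.62, 9.14, 9.55 and 8.80 in SYN1 cortex tumors and 9.32, 9.21 and 8.69 in SVZ tumors. The SYN1 cortex and SVZ tumors lay above normal brain without overlap, while GFAP cortex tumor 1 lay within the normal range. The GFAP hippocampus tumors ranged from 7.86 through a median of 8.50 to 9.34, and the NES hippocampus tumors had 9.18, 9.34, 8.89 and 8.23. In all, 17 of 22 tumor arrays lay above every normal array.

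The log2 difference in Fgf2 was 1.18 ± 0.32 in SYN1 cortex tumors (limma adjusted p = 0.00376), 1.13 ± 0.30 in SVZ tumors (0.00413) and 0.98 ± 0.32 in GFAP cortex tumors (0.0221). The GFAP cortex call was lost without GFAP cortex tumor 3 (0.77, adjusted p = 0.0959) or 4 (0.88, 0.0668), or without normal cortex sample 3 (0.95, 0.0504) or 4 (0.91, 0.0593). In NES hippocampus tumors the difference was 0.86 ± 0.32 (adjusted p = 0.099), and it was called without NES hippocampus tumor 4 (1.08, 0.037), with array weights (1.09, 2.47e-05), the replicate block (0.86, 0.0465) and only the groups compared (0.86, 0.0353). In GFAP hippocampus tumors it was 0.53 ± 0.28 (adjusted p = 0.135). With GFAP hippocampus tumors 1 to 4 only it was 0.85 (adjusted p = 0.0211), with arrays centred on their medians 0.59 (0.0439) and with quantile normalization 0.63 (0.0239). Over the 30 arrays Fgf2 went with the microglia and macrophage score (r = 0.71, and 0.50 within groups). It went likewise with the proliferating cell score (0.71 and 0.36) and the endothelial score (0.66 and 0.40). The part of these cells in the Fgf2 values was not tested.

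Pdgfa encodes PDGF-A, a ligand of PDGFRA and a growth factor for oligodendrocyte precursors. Normal cortex had 10.07, 10.15, 9.99 and 10.01 and normal hippocampus 9.98, 9.92, 9.89 and 9.80. The signal was 10.84, 10.20, 10.59 and 10.82 in SYN1 cortex tumors and 10.45, 10.52 and 10.88 in SVZ tumors, all above every normal array. GFAP cortex tumors had 9.67, 9.85, 9.92 and 10.50 and NES hippocampus tumors 10.48, 10.14, 9.94 and 9.86, around the normal level. In the GFAP hippocampus group, tumors 1 to 4 had 10.16, 10.22, 10.81 and 10.31 and tumors 5 to 7 had 8.21, 8.89 and 9.08, so that they lay on opposite sides of normal hippocampus.

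No difference in Pdgfa from normal was called: it was 0.64 ± 0.34 in SVZ (limma adjusted p = 0.151), 0.56 ± 0.35 in SYN1 cortex (0.24), 0.21 in NES hippocampus (0.785), -0.07 in GFAP cortex (0.916) and -0.23 in GFAP hippocampus tumors (0.584). The GFAP hippocampus value depended on which arrays were used. With tumors 1 to 4 only it was 0.48 (adjusted p = 0.0309) and with tumors 5 to 7 only -1.17 (9.6e-05). Without GFAP cortex tumor 1 and GFAP hippocampus tumors 5 to 7, which widen the pooled spread, Pdgfa was called in SVZ (0.64, adjusted p = 0.00211) and SYN1 cortex tumors (0.56, 0.00861). It was also called in SVZ tumors with arrays centred on their medians (0.71, 0.0443) and in both groups with quantile normalization (0.75, 0.0139, and 0.66, 0.0387).

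The split within the GFAP hippocampus group was not particular to Pdgfa. Ereg, Btc, Nrg1, Hgf and Pdgfa were all higher in tumors 1 to 4 than in tumors 5 to 7 without overlap, while Hbegf, Tgfa, Fgf1 and Fgf2 overlapped. The share of all genes without overlap between these parts was not computed. On the second principal component, taken over all genes, tumors 1 to 4 lay at 5 to 33 and tumors 5 to 7 at -74.7 to -55.9. The proliferating cell score was 2.80 to 3.21 in tumors 1 to 4 and 0.87 to 1.98 in tumors 5 to 7, and the endothelial score 1.01 to 1.31 and 0.30 to 0.72. The labels give no difference between these arrays, and a difference in tumor content cannot be told apart from one in the handling of the arrays.

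Tumor groups were also compared with each other. Between SYN1 and GFAP cortex tumors 0 of the 9 genes were called (0.176% of all genes), and 1, Btc, had an unadjusted p under 0.05 in limma (0.79 ± 0.38 higher in SYN1 tumors, adjusted p = 0.331). Only Nrg1 did not overlap between these groups (7.58% of all genes). Between NES and GFAP hippocampus tumors only Fgf1 was called (8.21% of all genes, 6.12% higher), and it was the only one of the 9 without overlap (1.7% of all genes). Tgfa was 0.59 ± 0.20 higher in the NES tumors (limma adjusted p = 0.0592), and it was called without GFAP cortex tumor 1 (0.59, 0.0264), without GFAP hippocampus tumor 3 (0.67, 0.0327) or 5 (0.65, 0.034), and without NES hippocampus tumor 1 (0.77, 0.0125). The NES minus GFAP difference in Hbegf was -0.45 ± 0.30 (limma adjusted p = 0.336), and -0.87 without NES hippocampus tumor 1 (0.0255).

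Among GFAP tumors of the 3 regions no growth factor gene was called by limma. Hippocampus against cortex called 0 of 9 (2.68% of all genes), with 0 at an unadjusted p under 0.05 and 0 without overlap (1.64% of all genes). SVZ against cortex called 0 (0.00502%), with Hgf and Fgf1 at an unadjusted p under 0.05, and 2, Btc and Nrg1, did not overlap (8.5% of all genes). SVZ against hippocampus called 0 (0.316%), with Ereg, Btc and Pdgfa at an unadjusted p under 0.05 and 0 without overlap (4.25% of all genes). Ereg was 1.19 ± 0.43 higher in SVZ than in hippocampus tumors (limma adjusted p = 0.196), Btc 0.96 ± 0.37 (0.221) and Pdgfa 0.95 ± 0.35 (0.2). The interaction of tumor and region called 0 of 9 (0.838% of all genes), with Hgf alone at an unadjusted p under 0.05 (0.54 ± 0.25, adjusted p = 0.442). For Nrg1 it was called with array weights (0.73, limma adjusted p = 0.0158) and the replicate block (0.91, 0.00784). The Nrg1 call also came without the 4 arrays that stood apart (0.93, 0.0163) and with tumors 1 to 4 only (0.91, 0.0157). Array weights called Hgf (0.56, 0.0441), and tumors 5 to 7 only called Pdgfa (-1.10, 0.0122). A difference that missed the threshold does not show that the groups are alike: for Hbegf the 95% interval of SVZ minus hippocampus ran from -0.26 to 1.08.

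In the order of group means, Hbegf, Ereg and Btc had both normal tissues lowest, then NES hippocampus tumors, and SVZ tumors highest. Only the step from normal tissue to NES hippocampus tumors was free of overlap between neighbouring groups, for each of the 3 genes. Fgf1 ran from SVZ tumors at 7.57 ± 0.26 (SD, n = 3) through GFAP hippocampus (7.70 ± 0.32, n = 7), GFAP cortex (8.12 ± 0.53, n = 4) and SYN1 cortex tumors (8.30 ± 0.37, n = 4) to normal hippocampus (9.10 ± 0.16, n = 4), NES hippocampus tumors (9.32 ± 0.53, n = 4) and normal cortex (9.35 ± 0.09, n = 4). The gap between SYN1 cortex tumors and normal hippocampus was the only one free of overlap in that order. For Hgf only normal hippocampus, the lowest group, was free of overlap with its neighbour.

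The chromosome 5 neighbours did not all move alike. Ereg and Btc had r = 0.945 over the 30 arrays and 0.792 for deviations from the group means, as a description of 30 arrays that share their scaling. Hbegf, on another chromosome, had r = 0.934 with Ereg and 0.914 with Btc (0.672 and 0.765 within groups). Epgn, the fourth protein-coding gene of the stretch, was called in none of the 5 tumor groups, with differences from -0.22 to 0.02. Nrg1 and Hgf had r = 0.783 (0.608 within groups), and Nrg1 and Pdgfa 0.555 (0.745 within groups).

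The genes whose signal was most like that of each growth factor were found by Pearson r over the 30 arrays among genes of 1 symbol. Predicted genes and genes named only by a clone or accession were left out of that search. For Hbegf they were Nes, the gene of the progenitor filament nestin (r = 0.981, and 0.891 within groups), Clic1 (0.974) and Lilr4b (0.972). Ereg was most like Slc25a24 (0.965), Rest (0.961), a repressor of neuronal genes, and Antxr2 (0.958), and Btc most like Antxr2 (0.971), Rest (0.970) and Plpp2 (0.969). Rest and Antxr2 stood on the lists of both Ereg and Btc, and none of the genes named for Hbegf did. Fgf1 was most like Shisa9 (0.918), Letm2 (0.904) and Snx32 (0.903), and Fgf2 most like Cd33 (0.886), a myeloid receptor, Ankrd44 (0.875) and Fgfrl1 (0.871), an FGF receptor-like protein. For Pdgfa they were Zfp948 (0.952), Tmem248 (0.942) and Csnk2a2 (0.942), for Tgfa Plcd4 (0.876), Scrg1 (0.858) and Plpp4 (0.857), for Nrg1 Arhgap10 (0.825), Cdh13 (0.800) and Cdyl2 (0.798), and for Hgf Plxnd1 (0.848), Chrdl1 (0.832) and Nrg1 (0.783).

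Several cell type scores moved with Hbegf, Ereg and Btc. Over the 30 arrays Hbegf had r = 0.94 with the proliferating cell score, 0.90 with the endothelial score, 0.77 with the microglia and macrophage score and -0.82 with the neuron score, and within groups 0.67, 0.72, 0.33 and -0.46. Ereg had 0.89, 0.86, 0.64 and -0.81, and within groups 0.58, 0.60, 0.04 and -0.36, and its r with the neutrophil score was 0.70 (0.61 within groups). Btc had 0.86, 0.89, 0.55 and -0.83, and within groups 0.64, 0.77, -0.01 and -0.46, with -0.84 (-0.57 within groups) for the oligodendrocyte score and -0.61 (-0.54) for the astrocyte score. The endothelial score was 0.17 to 1.31 over the tumor groups and -0.10 to 0.10 in normal brain, and the microglia and macrophage score 0.22 to 1.94 and -0.16 to 0.18. The number of endothelial markers called higher was 2 of 7 in GFAP cortex, 6 in GFAP hippocampus, 6 in SYN1 cortex, 1 in NES hippocampus and 6 in SVZ tumors, against 9%, 16.1%, 18.2%, 5.69% and 16.2% of all genes. Which cells carried the Hbegf, Ereg and Btc signal was not tested.

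Receptors of the EGF family ligands went in different directions. Of the 4 ERBB receptor genes, 2 were called higher and 1 lower in GFAP cortex and in GFAP hippocampus tumors, 1 and 1 in SYN1 cortex, 0 and 0 in NES hippocampus and 2 and 2 in SVZ tumors. In these groups, taken in the order GFAP cortex, GFAP hippocampus, SYN1 cortex, NES hippocampus and SVZ, 9%, 16.1%, 18.2%, 5.69% and 16.2% of all genes were called higher and 18.8%, 25.2%, 20.5%, 2.86% and 21.4% lower. Egfr, the shared receptor of Hbegf, Ereg, Btc and Tgfa, was 1.27 ± 0.42 higher in GFAP cortex (limma adjusted p = 0.0244), 1.19 ± 0.37 in GFAP hippocampus (0.012), 1.67 ± 0.42 in SYN1 cortex (0.00214) and 1.84 ± 0.40 in SVZ tumors (0.000605), with 1.03 ± 0.42 in NES hippocampus tumors (0.139). Erbb4, the other receptor of Hbegf, Ereg and Btc, differed by -2.09, -1.91, -2.99 and -2.44 in the same 4 groups, with adjusted p of 0.00226 and below, and by -0.67 in NES hippocampus tumors (0.449). Erbb2, which binds no ligand itself, was higher by 0.57 in GFAP cortex, 0.47 in GFAP hippocampus and 0.78 in SVZ tumors, and Erbb3 was lower in SVZ tumors (-0.97). The median difference of the 4 genes lay between -0.10 and 0.32. Without GFAP cortex tumor 1 and GFAP hippocampus tumors 5 to 7, 1 of the 4 was called higher in GFAP cortex tumors and 1 in NES hippocampus tumors. The shares of all genes called without these 4 arrays are not given here, for this list or those below. Whether such a change is particular to a list cannot be said.

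Of the other EGF family ligands, Egf, Epgn, Nrg2, Nrg3 and Nrg4, none was called higher in any tumor group. Nrg3, a neuronal ERBB4 ligand, was the only one called, with differences of -2.35 in GFAP cortex (limma adjusted p = 0.00269), -2.70 in GFAP hippocampus (0.00011), -3.34 in SYN1 cortex (3.19e-05) and -2.71 in SVZ tumors (0.000211), and of -1.18 in NES hippocampus tumors (0.208). Leaving out the 4 arrays that stood apart, 2 of the 5 were called lower in SYN1 cortex tumors, 2 in GFAP hippocampus tumors and 1 with NES-CRE. Of 9 measured genes for proteins that shed the ligands or assist in it, 5 were called higher in GFAP cortex, 6 in GFAP hippocampus, 7 in SYN1 cortex, 4 in NES hippocampus and 6 in SVZ tumors, with 0 lower in each, against 9%, 16.1%, 18.2%, 5.69% and 16.2% of all genes called higher. Their median difference was 0.82 to 1.34. Adam19 (-0.29 to 0.59) and Bace1 (-0.67 to 0.22) were called in none of the groups. Adam17, the main sheddase of EGFR ligands, was called in all 5 groups, at 1.45, 1.69, 1.97, 1.32 and 1.64 in that order, as were its partner Rhbdf1 (1.12 to 1.49) and Cd9, a tetraspanin that binds pro-Hbegf (1.80 to 2.81). Among 7 feedback and turnover genes of EGFR, Lrig1, a negative regulator, was called higher in all 5 groups (1.41 to 2.01), and the list had 1, 1, 2, 1 and 2 members higher and 0, 1, 0, 0 and 0 lower, against 9%, 16.1%, 18.2%, 5.69% and 16.2% and 18.8%, 25.2%, 20.5%, 2.86% and 21.4% of all genes. Without the 4 arrays that stood apart, 3 in place of 1 were called higher in GFAP hippocampus tumors. The NES hippocampus count of shedding genes was then 7. For the counts without these 4 arrays the shares of all genes are not given.

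On the HGF side, Met, the receptor, was called higher in all 5 tumor groups while Hgf was called in 1. Met was 0.86 ± 0.29 higher in GFAP cortex (limma adjusted p = 0.0285), 1.92 ± 0.26 in GFAP hippocampus (3.37e-06), 1.90 ± 0.29 in SYN1 cortex (1.3e-05), 1.02 ± 0.29 in NES hippocampus (0.0274) and 1.94 ± 0.28 in SVZ tumors (8.06e-06). Of 8 genes for the receptor, activating proteases and their inhibitors, 5, 5, 4, 3 and 4 were called higher and 0, 1, 1, 0 and 1 lower in these groups, against 9%, 16.1%, 18.2%, 5.69% and 16.2% and 18.8%, 25.2%, 20.5%, 2.86% and 21.4% of all genes. Without the 4 arrays that stood apart, 3 in place of 1 were called lower in GFAP hippocampus tumors (share of all genes not given). Plau, the urokinase that can activate pro-Hgf, had the largest differences, 3.81, 4.13, 4.28, 2.53 and 3.26, and Plat, the tissue plasminogen activator, 2.01, 1.96, 2.65, 1.80 and 2.36. Spint1, an inhibitor of Hgf activation, was called higher in 4 groups (1.24 to 2.37), all but NES hippocampus tumors.

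FGF receptors and cofactors showed both directions. Of 10 measured, 2, 0, 2, 1 and 2 were called higher and 1, 4, 3, 1 and 3 lower, in order, in GFAP cortex, GFAP hippocampus, SYN1 cortex, NES hippocampus and SVZ tumors, against 9%, 16.1%, 18.2%, 5.69% and 16.2% and 18.8%, 25.2%, 20.5%, 2.86% and 21.4% of all genes. Fgfr1 was higher in GFAP cortex (1.29 ± 0.35, limma adjusted p = 0.00751), SYN1 cortex (1.82 ± 0.35, 0.000173) and SVZ tumors (1.03 ± 0.34, 0.0163), with -0.02 in GFAP hippocampus and 0.09 in NES hippocampus tumors. Fgfr2 and Fgfr3 were lower in GFAP hippocampus (-1.01 and -0.92), SYN1 cortex (-1.67 and -1.74) and SVZ tumors (-1.35 and -1.68). Kl, the FGF cofactor klotho and also one of the choroid plexus markers, was lower in GFAP (-1.99) and NES hippocampus tumors (-1.55), where the choroid plexus and ependymal score was -0.93 to 0.84 and -0.47 to 0.71 against -0.07 to 0.92 in normal hippocampus. Without the 4 arrays that stood apart, 4 were called higher in GFAP cortex and 2 in GFAP hippocampus tumors (shares of all genes not given).

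Of 16 other secreted FGF genes, 0, 1, 0, 0 and 0 were called higher and 2, 5, 2, 0 and 1 lower in the same order, while 9%, 16.1%, 18.2%, 5.69% and 16.2% of all genes were called higher and 18.8%, 25.2%, 20.5%, 2.86% and 21.4% lower. Fgf9, a neuronal FGF, was lower in 4 groups, at -1.18 in GFAP cortex (limma adjusted p = 0.000493), -1.01 in GFAP hippocampus (0.000262), -1.58 in SYN1 cortex (5.47e-06) and -1.40 in SVZ tumors (1.57e-05), as Fgf1 was. Fgf7 was 2.21 ± 0.64 higher in GFAP hippocampus tumors (0.00711). Without the 4 arrays, 6 of the 16 were called lower in NES hippocampus tumors, in place of 0. Heparan sulfate proteoglycans, which hold FGFs and Hbegf at the cell surface, had 4, 4, 6, 1 and 4 of 12 called higher and 1, 2, 2, 1 and 2 lower, against 9%, 16.1%, 18.2%, 5.69% and 16.2% and 18.8%, 25.2%, 20.5%, 2.86% and 21.4% of all genes. Without the 4 arrays, 3 in place of 1 were called higher in NES hippocampus tumors, 6 in place of 4 higher in GFAP cortex tumors and 4 in place of 2 lower in SVZ tumors. For neither list are the shares of all genes without these arrays given. Sdc1 was higher by 2.0, 1.52, 3.04 and 2.65 in all groups but NES hippocampus, and Gpc5 was lower in the same 4 groups (-0.99, -1.58, -1.84 and -1.93).

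Among the other PDGF ligands, Pdgfd was 1.21 ± 0.32 higher in GFAP cortex (limma adjusted p = 0.00635), 0.96 ± 0.29 in GFAP hippocampus (0.00905), 1.64 ± 0.32 in SYN1 cortex (0.000206) and 0.93 ± 0.31 in SVZ tumors (0.018). Pdgfc was higher in GFAP hippocampus (0.97), SYN1 cortex (1.32) and SVZ tumors (0.90), and Pdgfb lower in GFAP hippocampus (-0.58) and SYN1 cortex tumors (-0.68). Pdgfra, the receptor of Pdgfa, was called in GFAP hippocampus tumors alone (1.06 ± 0.40, adjusted p = 0.0367), which does not show a difference from the other groups. Of the 5 genes, 1, 3, 2, 0 and 2 were called higher and 0, 1, 1, 0 and 0 lower, against 9%, 16.1%, 18.2%, 5.69% and 16.2% and 18.8%, 25.2%, 20.5%, 2.86% and 21.4% of all genes. Leaving out the same 4 arrays, 4 were called higher and 0 lower in GFAP hippocampus tumors, 1 higher in NES hippocampus tumors and 1 lower in SVZ tumors. The matching shares of all genes are not given.

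Genes that respond to ERK, the kinase shared by these receptors, had 4, 7, 5, 0 and 4 of 12 called higher and 1, 0, 1, 0 and 1 lower, against 9%, 16.1%, 18.2%, 5.69% and 16.2% and 18.8%, 25.2%, 20.5%, 2.86% and 21.4% of all genes. Fosl1 was higher by 2.42 in GFAP cortex (limma adjusted p = 0.00333), 1.71 in GFAP hippocampus (0.0104), 3.10 in SYN1 cortex (0.000139) and 3.07 in SVZ tumors (0.000106), and Dusp4 by 1.53, 1.88, 2.79 and 1.5. Etv5 was lower in GFAP cortex (-1.10), SYN1 cortex (-0.90) and SVZ tumors (-0.70), so the list did not move as a whole. In NES hippocampus tumors Fosl1 differed by 1.51 and Dusp4 by 0.68, neither called. Without the 4 arrays that stood apart, the count called higher was 5 in place of 0 in NES hippocampus, 8 in place of 4 in SVZ, 8 in place of 5 in SYN1 cortex and 10 in place of 7 in GFAP hippocampus tumors. Shares of all genes under that setting are not given, so whether the rise is particular to this list cannot be said.

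**Figure D4:**
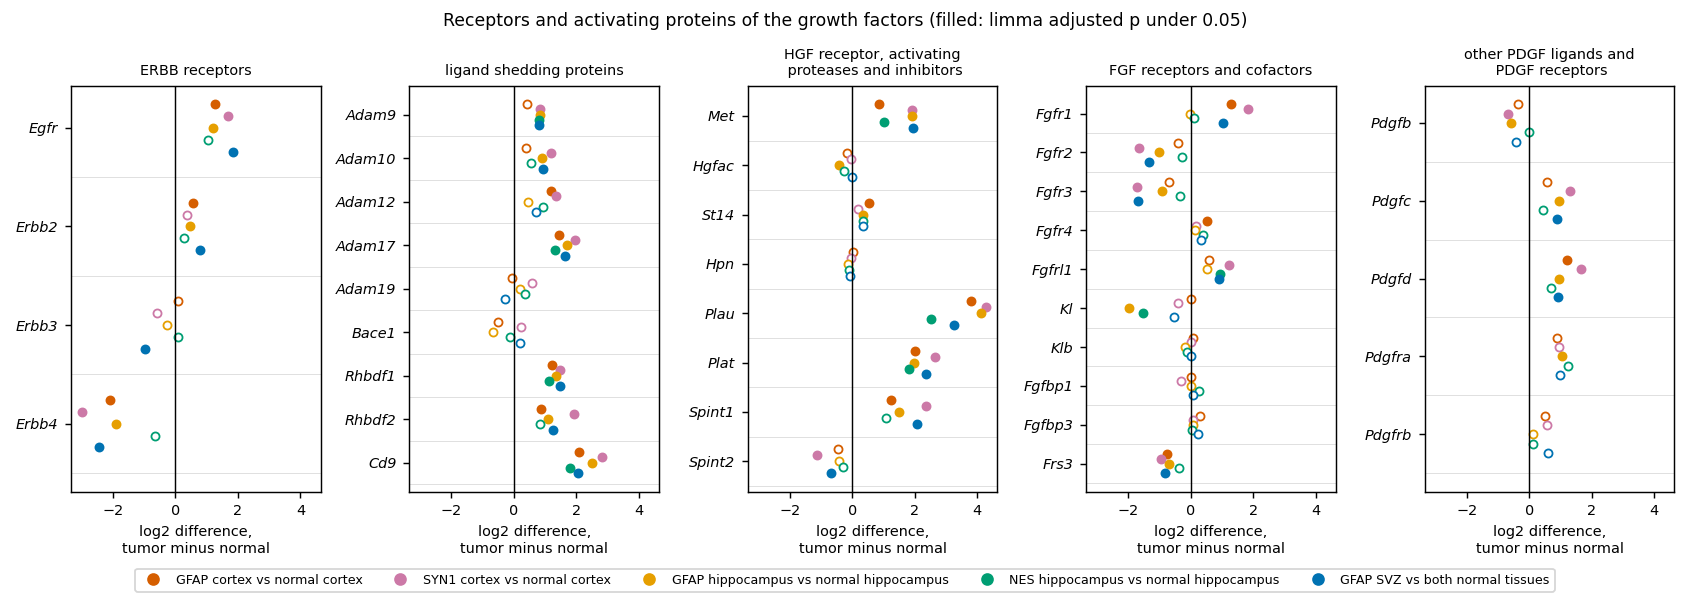
The log2 difference (horizontal axes, tumor minus normal) of receptor, shedding and activating genes in 5 tumor groups, in 5 panels by list; filled points have a limma adjusted p under 0.05. Egfr, Adam17, Cd9, Met, Plau and Plat lie to the right of 0 in all 5 groups and Erbb4 lies to the left, down to -2.99 in SYN1 cortex tumors.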

How the data were processed

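Total RNA of 30 samples gave 1 Affymetrix array each. The table the authors deposited holds a log2 signal for every probe set, and Affymetrix Power Tools, MAS5 and RMA are named, without their roles, per the submitters' processing notes. The values were used as deposited. Of 35556 probe sets, 21789 named 1 gene symbol, 1621 several and 12146 none, and 21701 were matched to RefSeq, giving 19936 genes. Where a gene had several probe sets (1001 genes), the one with the highest mean was used. Group means were fitted with limma 3.58.1 in R 4.3.3 over 30 arrays and 7 groups, with adjustment by Benjamini-Hochberg over all genes and calls at an adjusted p under 0.05. The fit was tried on simulated data in which each gene had the same spread in all groups. The spread in these data differed between groups, so that trial does not cover the effect of pooling it. Members, lists and the rule for named genes (all measured members, the 3 genes most like each, and called or defining members of the pathway lists) were chosen with earlier results of these data known. Labels do not say that replicate numbers pair samples: correlations of same-numbered arrays ran from -0.362 to 0.522. No 2 arrays were identical. Alternatives in scaling, filtering, weights, blocking and left-out arrays are given with the limits.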

Additional observations from a re-analysis of the deposited data

Results flagged for a closer look

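Ereg in GFAP hippocampus tumor 5 had a log2 signal of 6.83, far below the 8.46 to 9.60 of the other 6 arrays of its group. It was the only such array among 54 groups of values tested, where chance alone gives about 1 in 20. Fgf1 was 1.62 higher in NES than in GFAP hippocampus tumors by a test of the difference itself (limma adjusted p = 0.00127). For Nrg1, the deviations from the normal mean were all below 0 in GFAP cortex tumors and all above 0 in SYN1 cortex tumors, with a difference of -0.29 for GFAP minus SYN1, and the limma test of the difference gave an adjusted p of 0.613. They were all above 0 in NES hippocampus tumors too, with a difference of -0.82 for GFAP cortex minus NES hippocampus, which was not tested. The tumor means themselves were close, at 8.50 in GFAP cortex and 8.57 in NES hippocampus. The normal means they were set against were 8.60 in cortex and 7.86 in hippocampus, so the -0.82 lies mostly in the normal tissues.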

How the results depend on the processing

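Counts of the 9 genes called moved with the arrays used and their weights, which changed both the differences and the pooled spread. Shares of all genes called under the alternatives are not given here, nor for the list counts without the 4 arrays. Whether a changed count is particular to the genes counted therefore cannot be said. For GFAP hippocampus tumors against normal the count was 4, and 8 with array weights, with the replicate block, without the 4 arrays that stood apart, and with tumors 1 to 4 only. For NES hippocampus tumors it was 3, and 7, 6, 5 and 6 with array weights, the replicate block, only the groups compared, and without the 4 arrays. For SYN1 cortex tumors it was 5, and 5 to 7 under the alternatives. For SVZ tumors it was 5, and 8 with array weights. NES against GFAP hippocampus tumors gave 1, and 2 with dim genes left out, 5 with array weights, 3 with the replicate block, 0 with only the groups compared, 4 without the 4 arrays and 4 with tumors 5 to 7 only. SYN1 against GFAP cortex tumors gave 0, and 1 with array weights. GFAP hippocampus against cortex tumors gave 0, and 3 with tumors 5 to 7 only. SVZ against cortex tumors gave 0, and 5 with array weights and 3 without the 4 arrays. SVZ against hippocampus tumors gave 0, and 1 with the replicate block, 1 without the 4 arrays and 4 with tumors 5 to 7 only. The normal regions gave 1, Hgf, and 2, with Nrg1 added, with array weights, the replicate block, only the groups compared and without the 4 arrays. The interaction gave 0, and 2 with array weights and 1 with the replicate block, without the 4 arrays, and with tumors 1 to 4 or 5 to 7 only. Pdgfa in GFAP hippocampus tumors turned from -0.23 to 0.48 with the replicate block (limma adjusted p = 0.0388), without the 4 arrays (0.0224) and with tumors 1 to 4 only (0.0309). The cause was not tested.

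Leaving out 1 array at a time, the counts ran from 4 to 5 in GFAP cortex, 4 to 6 in GFAP hippocampus, 5 to 5 in SYN1 cortex, 2 to 5 in NES hippocampus and 5 to 6 in SVZ tumors, from 1 to 3 for NES against GFAP hippocampus, from 0 to 2 between normal regions, and 0 to 0 in the other 4 tumor comparisons and the interaction. The replicate block drops GFAP hippocampus tumors 5 to 7, whose numbers no other group of that comparison has, and replicate numbers are not known to pair samples. Centring moved the median of all genes in NES hippocampus tumors from -0.04 to -0.20. The mean of probe sets gives no other value, since each gene has 1. The number of arrays limits what could be detected.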
